A study of Mus musculus with 6 samples.

Results

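The long-read gene table of mouse perihematomal brain tissue, the brain around the clot of an intracerebral haemorrhage (ICH, bleeding into the brain), lists loci that have no entry in the gene annotation. They carry the types New_gene and Novel_lncRNA_gene (lncRNA, long non-coding RNA). The loci described here are those of either type with at least 30 counts summed over the 6 libraries, 1782 of the 2180 new loci and of the 24459 rows in the table. They are 1734 New_gene and 48 Novel_lncRNA_gene loci. The other 390 New_gene loci had 8 to 29 counts and the other 8 Novel_lncRNA_gene loci 11 to 29. Just inside the minimum, with 30 or 31 counts, were 51 New_gene loci at 0.879 to 0.974 CPM (counts scaled to a common library total) and 5 Novel_lncRNA_gene loci at 0.870 to 0.941. Just outside, with 28 or 29 counts, were 42 and 2 loci, at 0.825 to 0.893 and 0.837 to 0.839 CPM.

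Tissue was taken on day 5 after the bleed from mice that the labels give as WT, and both groups had the bleed. The 3 TEPP-46 libraries, T1, T2 and T3, came from mice given TEPP-46, a small molecule that activates pyruvate kinase M2, for 5 days in a row. The 3 vehicle libraries, C1, C2 and C4, came from mice given the carrier alone. Total RNA was reverse transcribed, amplified by PCR and read on nanopores. What strain, age and sex the mice had, and how the bleed was made, is not given in the sources used here. Below, vehicle values stand in the order C1, C2, C4 and TEPP-46 values in the order T1, T2, T3. The labels do not say that the libraries of a group came from separate animals, and p-values therefore measure only the spread between these libraries, which may be technical.

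A long-read assembly lists a new locus where reads group outside every annotated gene. Such loci can be transcribed intergenic sequence, unannotated long non-coding RNAs, copies of messenger RNAs that were reverse transcribed back into the genome (processed pseudogenes), or transposable elements such as endogenous retroviruses. Long non-coding RNAs are generally fewer per cell than messenger RNAs, and ribosomal protein genes and Gapdh are known for their many processed pseudogenes in the mouse. These sentences are background, and which of these kinds a given locus is was not tested. The deposited table identifies a new locus by a number alone. Positions and sequences of the new loci were not used here, so none is printed, and their place relative to exons, introns or neighbouring genes is not described.

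Library totals were 5286426 to 6025064 counts, and 1774 to 1781 of the 1782 loci had a count in each library. In all 6 libraries counts were found for 98.8% of the loci. The summed CPM of 8 lists of cell type markers differed between libraries, with every listed gene in the table and none at 0 in all libraries. Choroid plexus markers summed to 183 to 4995 CPM in vehicle (C1 at 4995) and 2252 to 3996 in TEPP-46. Markers of activated microglia and macrophages summed to 8563 to 24913 (C2 highest) and 9834 to 18474 CPM, of oligodendrocytes to 5361 to 13629 (C4 lowest) and 13166 to 15347. Markers of striatal projection neurons summed to 676 to 1858 and 1240 to 1564 CPM, of cortical excitatory neurons to 276 to 486 and 261 to 425, of the thalamus to 46.0 to 209.9 and 129.7 to 248. Astrocyte markers summed to 3532 to 3688 and 3836 to 4148 CPM, and red blood cell markers to 319 to 1053 and 559.8 to 748. In bulk tissue, fewer cells of a type and less RNA per cell cannot be told apart.

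The typical new locus was rare in either class. The median New_gene locus had 106 counts over the 6 libraries (interquartile range 52.0 to 299.8), or 3.18 CPM, and the median Novel_lncRNA_gene locus 105 counts (42.2 to 303), or 3.14 CPM. Annotated genes at the same minimum had a median of 484 counts or 14.5 CPM (14063 Known_gene rows), and annotated lncRNA genes 139 counts or 4.18 CPM (229 rows). More than 10 CPM was reached by 400 New_gene loci (23.1%) and 11 Novel_lncRNA_gene loci (22.9%), against 59.0% of Known_gene rows. Under 100 counts had 846 of the 1782 loci (47.5%). A long read stands for a whole molecule, so counts were not divided by length.

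The abundance of the classes was compared library by library. The class medians were 3.37, 2.81 and 3.22 CPM for New_gene in vehicle and 3.49, 3.38 and 3.01 in TEPP-46. For Novel_lncRNA_gene they were 2.81, 2.89 and 3.22 CPM in vehicle and 3.24, 3.02 and 2.45 in TEPP-46. New_gene was higher in 4 of 6 libraries, C4 gave no difference at 2 decimals, and C2 went the other way. The log2 ratio of the medians averaged 0.13 ± 0.14 (SD, n = 6), with an exact two-sided sign-flip p of 0.125 over libraries, where 0.031 is the smallest possible. The difference was thus no larger than the spread between libraries. The direction depended on the measure. Among loci with at least 100 counts the ratio was -0.18 (exact sign-flip p = 0.125), and with no count minimum it was 0.0. With the mean CPM over loci in place of the median it was -2.19 (exact sign-flip p = 0.031), which rests on 1 locus, ONT.8879. Without ONT.8879 the mean over Novel_lncRNA_gene loci was 11.1 to 13.5 CPM across libraries, below New_gene at 29.9 to 31.7 CPM.

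**Figure D1:**
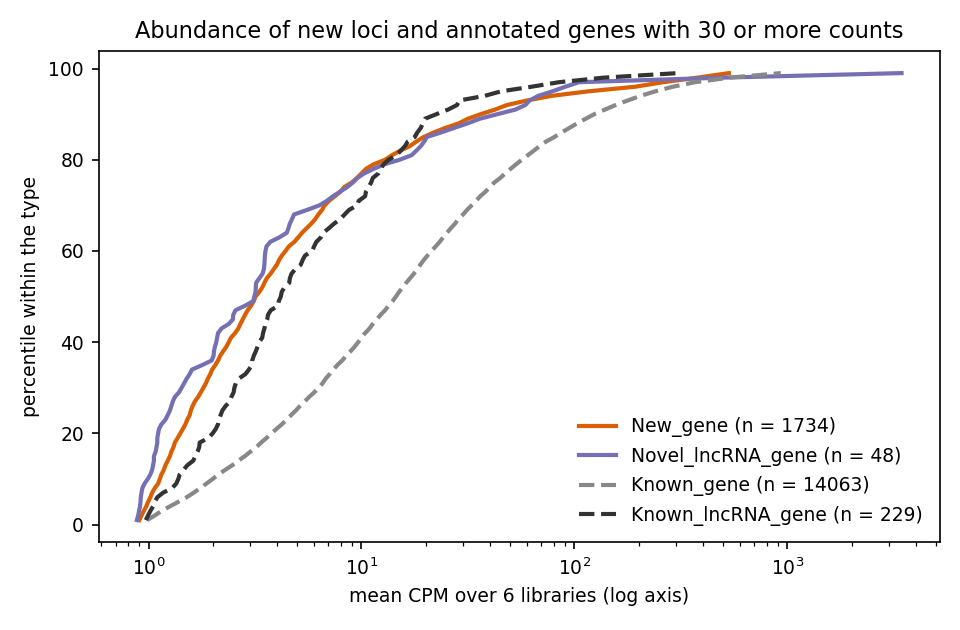
Percentile within each type (vertical axis) against mean CPM over the 6 libraries (horizontal axis, log scale) for loci and genes with at least 30 counts. The curves of New_gene (median 3.18 CPM) and Novel_lncRNA_gene (3.14 CPM) cross several times. At the median both lie to the left of Known_gene (14.5 CPM). At percentile 99 Novel_lncRNA_gene lies to the right of Known_gene (3434 against 931 CPM). That point is interpolated between the 2 highest Novel_lncRNA_gene loci, ONT.6813 at 117 CPM and ONT.8879 at 6375 CPM, so it rests on 1 locus.

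A single Novel_lncRNA_gene locus, ONT.8879, held 211637 of the 230365 counts of its class and 10.5% of the counts on all 1782 loci. It was the most abundant new locus, at 8420, 4474 and 7040 CPM for vehicle and 6431, 6724 and 5163 in TEPP-46. The groups overlapped, with C1 highest and C2 lowest of all. Without it the mean of the class was 11.9 CPM against 31.1 for New_gene, and 145 with it. The next Novel_lncRNA_gene loci were far lower: ONT.6813 at a mean of 117 CPM, ONT.5200 at 86.9, ONT.6059 at 63.3, ONT.11204 at 57.3 and ONT.6482 at 37.6.

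Counts were concentrated in few New_gene loci too, and most of the leading ones matched a housekeeping protein. The 10 highest of all new loci held 35.9% of the counts on them. ONT.9339 and ONT.7158, both with a database hit to the glycolytic enzyme Gapdh, averaged 3304 and 3193 CPM. ONT.12712, with a hit to Ppia (cyclophilin A, a protein-folding enzyme), averaged 2853 CPM. ONT.2238, with a hit to Cox7c, a subunit of cytochrome c oxidase in the respiratory chain, averaged 1430 CPM, and ONT.7589, with a hit to the small ribosomal subunit protein Rps29, 1156 CPM. ONT.13244, at 959 CPM, matched only an unnamed rat protein.

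The deposited table gives, for each locus, the best hits of its sequence in protein databases. A hit in NR, a general protein database, was listed for 72.7% of New_gene and 66.7% of Novel_lncRNA_gene loci, a KEGG hit for 54.4% and 29.2%, and a Pfam domain for 15.3% and 4.17%. The loci were sorted by these hits into 5 groups, a sorting chosen after values were seen. A close KEGG hit, with an E value (the number of equally good matches that chance would give) of at most 1e-20, was found for 266 loci, every one a New_gene. These held 65.2% of the counts on new loci. Hits to a retroviral or LINE-1 protein were found for 25 loci (23 New_gene, 2 Novel_lncRNA_gene), and a weak KEGG hit to Arih2, an E3 ubiquitin ligase, for 593 (588 and 5). Some other hit was listed for 412 (387 and 25) and none for 486 (470 and 16).

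The median level followed these groups: 17.2 CPM for loci with a close hit, 17.6 for retroviral or LINE-1 hits, 2.71 for weak Arih2 hits, 2.91 for other hits and 2.68 for loci without one. The 70 close-hit loci that matched a cytosolic ribosomal protein were at a median of 293 CPM, and 67 of them were over 10 CPM. The weak Arih2 hits had E values of 1.5e-15 to 8.9e-06, with a median of 4.4e-10. Among annotated rows it was listed for 1 Known_gene, Arih2 itself (chromosome 9, 108602942 to 108649386 on GRCm38), and for 7 Known_lncRNA_gene rows. Most of these loci also shared their NR hits: rCG56442, a predicted rat protein, was listed for 171 loci and for no annotated gene, mCG1045525 for 163 loci and 1 annotated gene, and a protein called Chpt1 for 150 loci and no annotated gene. In all, 13 NR hits that were each listed for 10 or more loci covered 752 of the 1782. A Nedd4 hit, another ubiquitin ligase, was listed in Swiss-Prot for 172 loci, 164 of them with the weak Arih2 hit. A hit name shared by so many loci was not taken as a gene name, and the loci are called here by their numbers.

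For 237 of the 266 close-hit loci the matched protein belongs to an annotated gene of the same table, its counterpart, and 214 different counterparts were found. The counts of a locus could therefore be set beside those of its counterpart in each library. In 106 pairs both had at least 1000 counts, 65 of them ribosomal. The locus had a median of 27.9% of the counterpart's counts, from 0.979% to 119%, with 10 loci over 80% and 2 above their counterpart. The percentage barely moved between libraries: its highest value was a median of 1.06 times its lowest, less than 5% above it in 45 pairs, less than 10% above it in 66 and over 1.5 times as high in 11. In the 131 pairs with fewer counts on either side, the median was 2.24 times over the 125 with counts in every library.

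ONT.7589 had 6597, 6466 and 4362 counts in vehicle and 6950, 7502 and 6645 in TEPP-46. Rps29 (chromosome 12, 69157722 to 69159186 on GRCm38) had 6640, 6510 and 4397 counts and 6991, 7539 and 6682. The locus was thus at 99.2 to 99.5% of the gene in every library, also in C4, where both were low. ONT.9916 was at 97.7 to 99.2% of Rps16 (chromosome 7, 28350652 to 28353155), another protein of the small ribosomal subunit. Rpl17, of the large subunit, had 3 such loci: ONT.9622 at 95.7 to 97.2%, ONT.2672 at 91.0 to 95% and ONT.10882 at 88.4 to 91.6%.

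Steady pairs were also found outside the ribosome. ONT.12712 stood at 48.2 to 48.7% of Ppia (chromosome 11, 6415443 to 6419817), whose levels were 5937, 5844 and 6197 CPM in vehicle and 6203, 5313 and 5807 in TEPP-46. The Gapdh loci ONT.9339 and ONT.7158 stood at 20.8 to 22% and 20.1 to 21.3% of Gapdh (chromosome 6, 125161715 to 125166467). ONT.2238 stood at 33.9 to 36.3% of Cox7c (chromosome 13, 86044816 to 86046904). Further pairs of this kind were ONT.4725 with Ndufs5 of respiratory complex I (30.2 to 30.6%), ONT.12509 with Sec61g of the protein translocation channel (21.1 to 21.9%) and ONT.5370 with Oaz1, the inhibitor of polyamine synthesis (23.6 to 24.5%).

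Some pairs did not keep their ratio. ONT.10800 was at 0.424 to 1.59% of Apoe, the main lipid carrier of the brain, with C4 lowest. ONT.1429 was at 61.1 to 166% of Pisd, a mitochondrial enzyme of phospholipid synthesis. ONT.3647 was at 7.13 to 12.2% of the polyubiquitin gene Ubb.

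The steadiness was also ranked against other annotated genes, which include relatives of a counterpart, such as Rps12-ps3 beside Rps12. Among 4480 Known_gene rows with at least 1000 counts, the counterpart had the steadiest ratio to its locus in 34 of the 106 pairs and was among the first 10 in 69. It was in first place for 29 of the 65 ribosomal pairs and 5 of the other 41, and it ranked after the first 100 in 24 pairs. This is a description over 6 libraries, in which abundant genes of one kind move together. Whether the same reads were counted at a locus and at its counterpart was not tested, and how reads matching several places were treated is not given in the sources used here.

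Some loci with the same counterpart were also alike among themselves, and others were not. ONT.7094, also with Gapdh as its counterpart, ranged from 3.11 to 4.54% of Gapdh over the 6 libraries. Of the Hmgb1 loci, ONT.4370 ranged from 17.7 to 19.2% and ONT.7368 from 3.11 to 7.57%. Among the 208 new loci with at least 1000 counts, 30 of the 21528 pairs of loci kept their ratio within 5% over the 6 libraries, and 12 of the 30 shared a counterpart. How many of the 21528 pairs shared a counterpart is not given here. The 4 pairs within 1% all shared one. They were ONT.9339 and ONT.7158 (Gapdh), ONT.10112 and ONT.5449 (Rpl35a), ONT.789 and ONT.4001 (Rpl23a), and ONT.10289 and ONT.12686 (Rps27a). Counts of such loci are not independent observations.

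**Figure D2:**
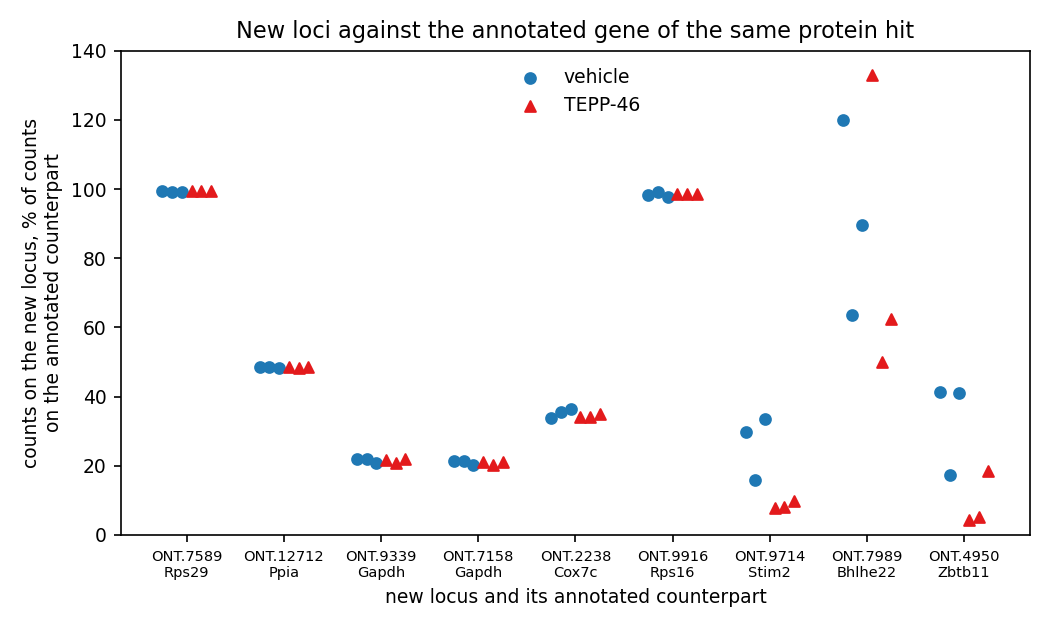
Counts on 9 new loci as a percentage of the counts on their annotated counterpart (vertical axis), with 1 point for each library (circles vehicle, triangles TEPP-46). The 6 libraries of ONT.7589 lie at 99.2 to 99.5% of Rps29 and those of ONT.12712 at 48.2 to 48.7% of Ppia, while the rarer loci ONT.9714, ONT.7989 and ONT.4950 spread widely.

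ONT.8879 has no close hit, its listed hit being a predicted rat protein, and its nearest companions were found by the steadiness of their ratio alone. ONT.5270, a New_gene locus, had 14.6% of its counts, with a highest ratio 1.02 times the lowest. Akap5 (chromosome 12, 76324891 to 76334153), a kinase anchoring protein of synapses, had 38.2%. Its levels were 3292, 1671 and 2668 CPM under vehicle and 2481, 2596 and 1956 in TEPP-46, which puts the 6 libraries in the same order as ONT.8879. Tatdn1, Pex13, the New_gene locus ONT.8314, Lrrc17, Ccdc36 and Timm22 followed, and these 8 of 4713 genes and loci kept their ratio within 10%. C2 and T3, the 2 libraries lowest for ONT.8879, were the 2 highest for markers of activated microglia and macrophages (24913 and 18474 CPM). They were also the 2 highest for red blood cell markers (1053 and 748 CPM) and the 2 lowest for markers of cortical excitatory neurons (276 and 261 CPM). Markers of striatal projection neurons did not go that way: C2 was the highest library (1858 CPM), and T3 was at 1330 CPM, above C1 and C4 (676 and 986 CPM). The part of these differences in the level of ONT.8879 was not tested.

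Isoform number differed between the classes, though most loci of either class had 1 isoform. A single isoform was listed for 1628 of the 1734 New_gene loci (93.9%, exact binomial 95% interval 92.7 to 95%) and for 34 of the 48 Novel_lncRNA_gene loci (70.8%, 55.9 to 83.0%). The intervals treat loci as independent and cover counting error only. The class means were 1.09 and 1.44 isoforms and the highest numbers 8 and 5. Known_gene rows at the same minimum had a mean of 4.06 isoforms and 18% with 1, and Known_lncRNA_gene rows 1.90 and 59.0%. Isoform number has no value for each library, so no test over libraries was possible. What defines the 2 types is not given, and whether isoform number itself bears on the type of a locus was not tested. Among loci with at least 100 counts the shares with 1 isoform were 89.1% and 48.0%.

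**Figure D3:**
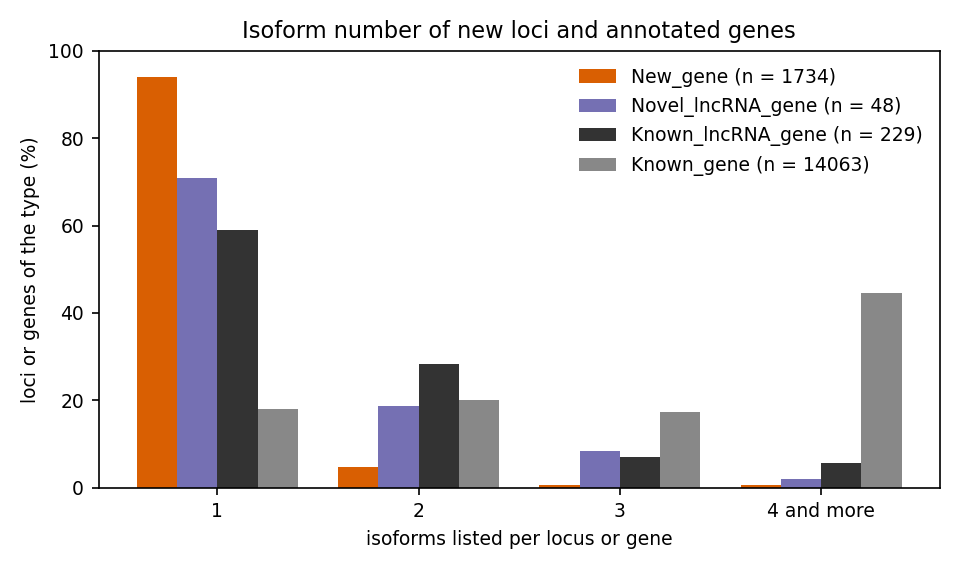
Share of loci or genes of each type (vertical axis, %) with 1, 2, 3 or at least 4 listed isoforms (horizontal axis), for those with at least 30 counts. A single isoform was listed for 93.9% of New_gene, 70.8% of Novel_lncRNA_gene, 59.0% of Known_lncRNA_gene and 18% of Known_gene rows.

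A single isoform was more frequent in New_gene than in Known_gene at every level of counts. At 30 to 99 counts 99.1% of New_gene loci and 32.9% of Known_gene rows had 1 isoform, from 100 to under 1000 counts 90.8% and 19.5%, and at 1000 and more 83.2% and 8.09%. By hit group, 1 isoform was listed for 99.2% of loci with a weak Arih2 hit, 94.9% of loci with none, 91.5% with another hit, 83.5% with a close hit and 56.0% with a retroviral or LINE-1 hit. The isoforms of New_gene loci were all typed New_mRNA, 1885 of them. The Novel_lncRNA_gene loci held 57 isoforms typed Novel_lncRNA and 12 typed New_mRNA, so the class is not made of non-coding types alone. In ONT.5200 the main isoform, with 72.6% of its counts, was typed New_mRNA, and in ONT.6813 the main one, with 45.7%, was too.

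ONT.9478 had the most isoforms, 8, with 16127 counts in all and a close hit to the chaperonin subunit Cct6a, for which no counterpart was matched here. Its 4 leading isoforms had 3840, 3780, 3582 and 3470 counts, and the least abundant 24. ONT.6030, with 6 isoforms of 371 to 469 counts, had a Swiss-Prot hit to the membrane protein Tmem134. ONT.13234, with 6 isoforms of 121 to 289 counts, had no hit. In ONT.8879 the 4 leading isoforms had 48577, 48395, 48381 and 48379 counts, each 22.9 to 23.0% of the locus, and the fifth 17905. In C1 these 4 had 10350, 10328, 10324 and 10323 counts. The locus total is the sum over isoforms here, as in all 1782 loci. Whether reads were counted at several isoforms was not tested, and if they were, the total of such a locus exceeds its reads.

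The treatment comparison asks whether TEPP-46 changed the new loci. Their share of all counts was 6.30, 5.83 and 5.94% in vehicle and 6.17, 6.22 and 6.04% in TEPP-46. The groups overlapped, with means of 6.02 ± 0.248% in vehicle against 6.15 ± 0.0942% with TEPP-46 (n = 3 each, SD; two-sided exact permutation p = 0.5). New_gene loci took 5.40, 5.33 and 5.18% in vehicle and 5.47, 5.49 and 5.47% in TEPP-46. These groups did not overlap, at 5.3 ± 0.113% and 5.48 ± 0.0164% (n = 3 each, SD; two-sided exact permutation p = 0.1, the smallest that 3 against 3 allows). The summed astrocyte markers separated the groups as well (3532 to 3688 CPM in vehicle, 3836 to 4148 with TEPP-46), and C4, the library lowest for New_gene, was at 5361 CPM for oligodendrocyte markers against 13166 to 15347 in the other 5; their part in the New_gene share was not tested. Novel_lncRNA_gene loci took 0.718 ± 0.202% in vehicle against 0.670 ± 0.0838% with TEPP-46 (n = 3 each, SD; two-sided exact permutation p = 0.8). The sign of that last difference, -0.0478 percentage points, turned to 0.0418 without C1 and to 0.000157 without T3.

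The class shares were carried by few loci. ONT.8879 alone took 0.664 ± 0.2% in vehicle against 0.611 ± 0.0830% with TEPP-46 (SD, n = 3 each). The other 47 Novel_lncRNA_gene loci took 0.0548, 0.0519 and 0.0526% in vehicle and 0.0637, 0.0563 and 0.0576% in TEPP-46, without overlap. Leaving ONT.8879 out was chosen after values were seen, so this difference is given as a description, without a p. Of New_gene, the loci with a close hit took 3.86, 4.12 and 3.73% in vehicle and 3.95, 3.99 and 4.15% in TEPP-46, the groups overlapping. The ribosomal ones among them took 2.09 ± 0.241% and 2.21 ± 0.160% (SD, n = 3 each).

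**Figure D4:**
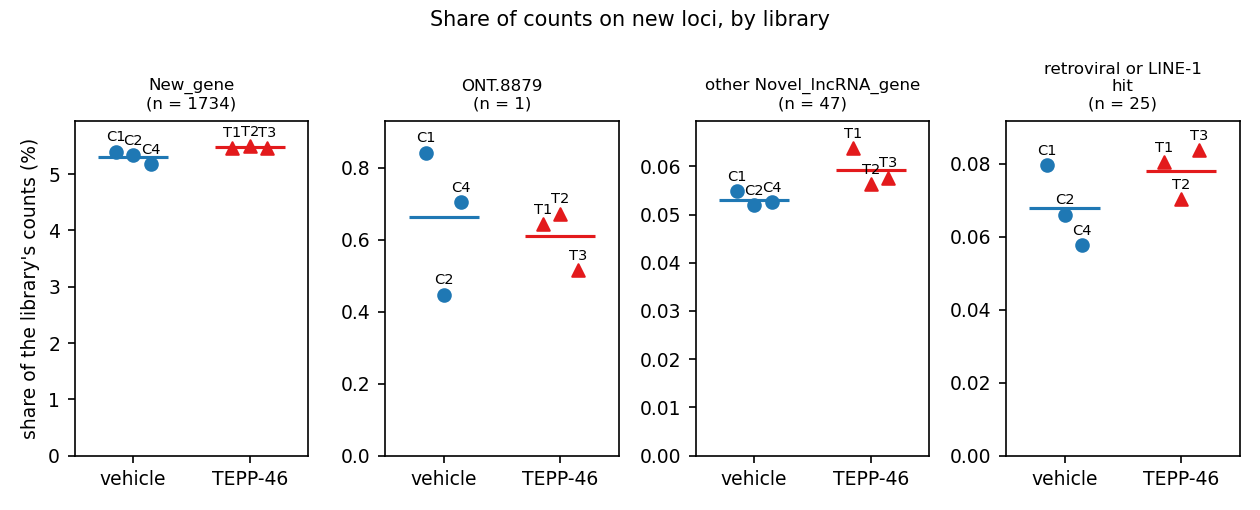
Share of each library's counts (vertical axes from 0, %) on 4 sets of new loci, with a point for each library and a line at the group mean. The TEPP-46 libraries lie above all vehicle libraries for New_gene (5.47 to 5.49 against 5.18 to 5.40%) and for the 47 Novel_lncRNA_gene loci beside ONT.8879, and overlap with vehicle for ONT.8879 and for loci with a retroviral or LINE-1 hit.

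Locus by locus, no change between TEPP-46 and vehicle was called. Of the 1782 loci, 1290 passed edgeR's filter on low counts (1258 New_gene and 32 Novel_lncRNA_gene) and 492 did not. At a Benjamini-Hochberg adjusted p under 0.05 in edgeR's quasi-likelihood test, 0 of the 1290 were called, where the background is 0% of 14441 genes tested. The smallest adjusted p among them was 0.381. With an unadjusted p under 0.05, 26 loci were higher and 26 lower in TEPP-46, 4.03% of the loci tested, where the background is 5.93% of all genes tested (1.88% higher and 4.05% lower). New_gene had 25 and 26 of these (4.05%) and Novel_lncRNA_gene 1 and 0 (3.12%). The groups did not overlap in 132 loci, 82 higher and 50 lower, or 10.2%, against a background of 11.4% (5.67% higher and 5.76% lower). By direction, 2.02% of the loci tested were higher and 2.02% lower at that p, and 6.36% and 3.88% did not overlap, so the higher shares were near the background and the lower ones under it. That gap was not tested, and nothing is read from these counts about the new loci. The counts at an unadjusted p also moved with single libraries: 88 were higher without C1, 11 without T1 and 15 without T2, and 50 were lower without C2 and 10 without C4. In the fit without C2, edgeR called 3 loci, ONT.5954, ONT.7989 and ONT.9714. No share over all genes is given for the fits with a library left out, so nothing is read from their counts about the new loci. DESeq2 on all 6 libraries also called 3, ONT.5954, ONT.7554 and ONT.9714, each lower, where its background is 0.553% of genes.

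The fitted log2 fold changes of the loci tested were small and more often positive than negative. Their median was 0.06 over the New_gene loci tested, 0.01 over the Novel_lncRNA_gene loci and 0.01 over all genes tested, and 60.0%, 53.1% and 51.1% of them were positive. Many loci share counterparts and hits, so they are not independent. In the 106 abundant pairs of locus and counterpart the fitted log2 fold changes differed by a median of 0.0200, and by under 0.1 in 91 pairs. For ONT.7589 it was 0.22 and for Rps29 0.21, for ONT.12712 -0.06 and for Ppia -0.07, and neither gene nor locus passed.

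**Figure D5:**
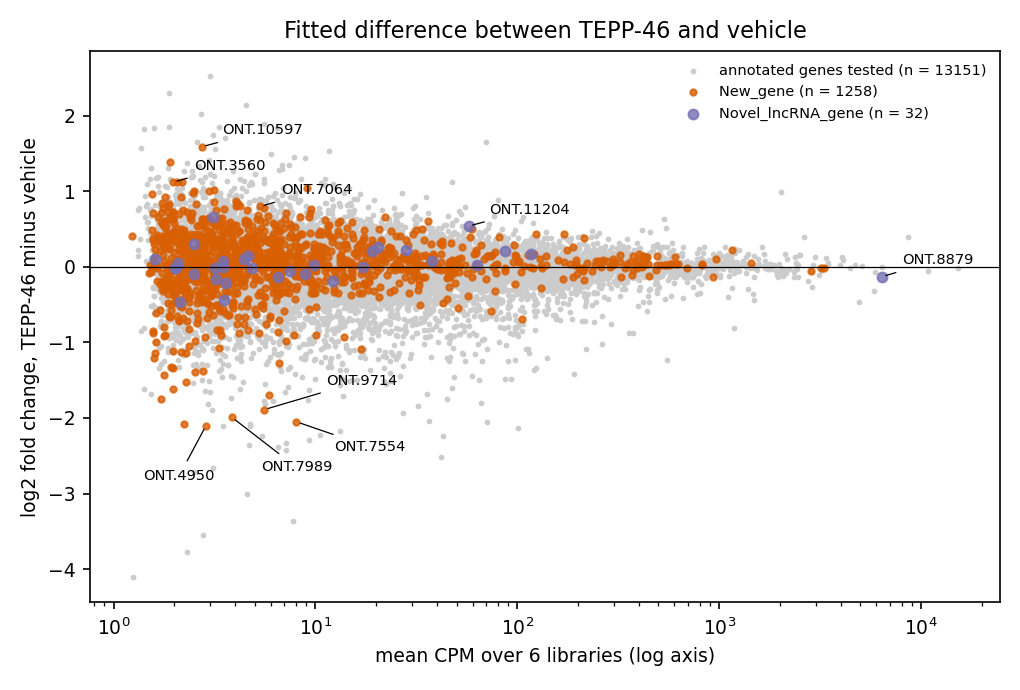
Log2 fold change of TEPP-46 over vehicle as fitted by edgeR (vertical axis) against mean CPM (horizontal axis, log scale) for the 1258 New_gene and 32 Novel_lncRNA_gene loci tested, over the annotated genes in grey. The lowest labelled New_gene loci, between -1.89 and -2.10, have a mean of under 10 CPM, and no locus passed an adjusted p of 0.05.

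The 3 New_gene loci with the smallest p among those lower in TEPP-46 all have a close hit, and all are rare. ONT.9714, with a hit to Stim2, a calcium sensor of the endoplasmic reticulum, had 49, 25 and 67 counts in vehicle and 13, 14 and 13 in TEPP-46. The groups did not overlap, and the fitted difference did not pass (log2 fold change -1.89, SE 0.41, adjusted p = 0.381 in edgeR). Stim2 itself (chromosome 5, 53998499 to 54121057) had 164, 157 and 200 counts in vehicle and 167, 174 and 132 in TEPP-46, which overlap, so the locus was at 15.9 to 33.5% of Stim2 in vehicle and 7.78 to 9.85% in TEPP-46. ONT.7989, with a hit to Bhlhe22, a transcription factor of cortical and other projection neurons, had 42, 14 and 43 counts in vehicle and 8, 8 and 10 in TEPP-46 (log2 fold change -1.99, SE 0.49, edgeR adjusted p = 0.475). Here the annotated gene (chromosome 3, 18054174 to 18057517) went the same way, with 35, 22 and 48 counts in vehicle and 6, 16 and 16 in TEPP-46, a log2 fold change of -1.52 and an edgeR adjusted p of 0.642.

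ONT.4950, with a hit to the zinc finger protein Zbtb11, had 33, 15 and 27 counts in vehicle and 3, 4 and 11 in TEPP-46 (log2 fold change -2.10, SE 0.55, edgeR adjusted p = 0.534). Zbtb11 (chromosome 16, 55973883 to 56008913) had 80, 86 and 66 counts in vehicle and 71, 79 and 59 in TEPP-46, overlapping. In all 3 loci C2 was the lowest vehicle library, and C2 was also the lowest vehicle library for the summed markers of cortical excitatory neurons (vehicle 481, 276 and 486 CPM, TEPP-46 425, 412 and 261 CPM). For markers of striatal projection neurons C2 was instead the highest library (vehicle 676, 1858 and 986 CPM, TEPP-46 1240, 1564 and 1330 CPM). The part of neuron content in these values was not tested. Without C2, edgeR called ONT.9714 and ONT.7989, each at an adjusted p of 0.0354, and ONT.5954 at 0.0387. No other fit with a library left out called any of them. The lowest edgeR adjusted p in those other fits was 0.587 for ONT.9714 and 0.612 for ONT.7989, both without T3. No share over all genes is given for these fits, so nothing is read from the calls without C2.

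ONT.5954 and ONT.7554 were chosen after their values were seen, from those calls. ONT.5954, with a hit to the casein kinase Csnk1g3, had 16, 2 and 47 counts in vehicle and 2, 1 and 1 in TEPP-46. C2 and T1 were level at 2 counts, and the locus did not pass the filter of the edgeR test. DESeq2 gave it a log2 fold change of -4.15 and an adjusted p of 0.0462. ONT.7554, with an unnamed protein as its hit, had 65, 63 and 82 counts in vehicle and 4, 17 and 31 in TEPP-46, without overlap. Its log2 fold change was -2.05 with an edgeR adjusted p of 0.536, and DESeq2 gave an adjusted p of 0.0246. The authors' deposited table lists 5 of the loci as down, ONT.10164, ONT.4950, ONT.7554, ONT.7989 and ONT.9714, and 0 as up, among 1693 given a call. The background in the authors' deposited table is 1.42% of 15896 rows (1.29% down and 0.126% up).

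The 3 New_gene loci with the smallest p among those higher in TEPP-46 were rare as well. ONT.10597, with no hit, had 9, 10 and 3 counts in vehicle and 29, 18 and 23 in TEPP-46 (log2 fold change 1.59, SE 0.44, edgeR adjusted p = 0.559). ONT.7064, one of the loci with a weak Arih2 hit, had 20, 22 and 21 counts in vehicle and 41, 36 and 38 in TEPP-46, with little spread in either group (0.80, SE 0.25, adjusted p = 0.657 in edgeR). ONT.3560, with no hit, had 8, 6 and 6 counts in vehicle and 18, 13 and 15 in TEPP-46 (1.12, SE 0.38, adjusted p = 0.687 in edgeR). The groups did not overlap in any of the 3, and none passed.

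Among the Novel_lncRNA_gene loci, ONT.11204 had the smallest p. It has hits to a gag-pol protein, the structural and enzyme polyprotein of retroviruses, and had 248, 245 and 264 counts in vehicle and 435, 298 and 422 in TEPP-46. The TEPP-46 libraries were all above the vehicle ones, at 68.2 ± 13.7 against 46.5 ± 3.48 CPM (SD, n = 3 each) (log2 fold change 0.54, SE 0.17, adjusted p = 0.657 in edgeR). ONT.5200, with a hit to a pol protein, was at 93.5 ± 10.9 against 80.4 ± 13.2 CPM, the groups overlapping (0.21, SE 0.15). ONT.9912, with an unnamed protein as its hit, was at 3.83 ± 1.01 against 2.38 ± 0.652 CPM. At the other end were ONT.7018 at 2.99 ± 0.485 against 4.05 ± 1.54 CPM, ONT.7246 at 1.79 ± 1.20 against 2.47 ± 0.847 and ONT.3069, with a weak hit to Tnfaip2, at 11.5 ± 1.18 against 12.8 ± 2.84. The groups overlapped in these 4, and none passed.

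The 25 loci with a retroviral or LINE-1 hit were looked at together, a grouping made after values were seen. Of these, 17 carry a hit to Iap, the IgE-binding protein that stems from intracisternal A particles, a family of endogenous retroviruses of the mouse, and 5 a hit to a retroviral envelope polyprotein. The most abundant was ONT.8601, with 134 ± 12.4 CPM in TEPP-46 against 124 ± 29 for vehicle, followed by ONT.5200 and ONT.1945, the latter at 73.4 ± 12 and 59.3 ± 19.4 (SD, n = 3 each). All 25 were tested and 24 (96.0%) had a positive log2 fold change, beside 59.8% of all new loci tested and 51.1% of all genes tested. The values ran from -0.27 for ONT.2599 to 0.54 for ONT.11204. Their median was 0.21, beside 0.05 over all new loci and 0.01 over all genes. At an unadjusted p under 0.05 there was 1, ONT.11204, which is 4.0% and near the background of 5.93%. Their summed share was 0.0796, 0.0660 and 0.0577% in vehicle and 0.0804, 0.0703 and 0.0837% in TEPP-46. The groups overlapped, with C1 above T2. Loci of one repeat family share sequence, so reads could have been placed at either of several, which was not tested. The 25 loci are therefore not taken as independent observations, and nothing is read from the number with a positive sign.

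The comparison by isoform largely repeats the one by locus. A single isoform was listed for 93.3% of the new loci, and such an isoform has the same counts as its locus. The result is therefore not independent of the one above. Of the 1954 isoforms of the new loci 1421 passed the filter. At an edgeR adjusted p under 0.05, 0 were called, where the background is 0% of 33854 isoforms tested. The lowest adjusted p among them was 0.338. With an unadjusted p under 0.05, 40 were higher and 35 lower in TEPP-46, 5.28% against a background of 5.77%. Without C1 98 were higher, without T1 18 and without T2 22, and without C2 81 were lower and without C4 21. The 4 leading isoforms of ONT.8879 had log2 fold changes of -0.15 each. Isoform usage, the proportions of a locus's isoforms apart from its total, could be tested in 90 loci, and 0 were called by edgeR's diffSpliceDGE with Simes p-values, where the background is 0.0131% of 7639 genes. The lowest unadjusted p was 0.305, so 0 were under 0.05, where the background is 0.641%. DESeq2 called 2 isoforms and edgeR without C2 called 6, while usage was tested with edgeR alone. No share over all isoforms is given for those fits, so nothing is read from their calls about the new loci.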

How the data were processed

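The 6 libraries were described by a gene table and an isoform table with raw counts that the authors deposited, per the file headers. CPM was computed from these counts, and 12 other columns of values per library were not used. Named in the submitters' processing notes are GRCm38 and DESeq 1.10.1. Which aligner was used, how reads matching several places were counted and what defines the 2 new types is not given in the sources used here. P-values, log2 fold changes and calls that the authors deposited were used only where named; per the file headers, the calls rest on a fold of 1.5 and an unadjusted p of 0.01.

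Column letters tie libraries to a group, C to vehicle and T to TEPP-46, but no column number could be tied to a numbered sample, and libraries go by their column name. The members and lists were chosen with earlier results of these data known.

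All genes were fitted with edgeR 4.0.16 in R 4.3.3 (filterByExpr, TMM, robust quasi-likelihood F test, group as the single term) and adjusted over all genes tested, and isoforms likewise. DESeq2 1.42.0 was an alternative. The fits were tested on simulated data. Shares and class medians were compared with exact two-sided permutation tests over libraries. Intervals are exact binomial at 95% and cover counting error only. A locus with 30 counts over the 6 libraries is at 0.901 CPM, and 3 counts in 1 library are 0.498 to 0.567 CPM. Counterparts were matched by the symbol in the Swiss-Prot or KEGG hit, and likeness was ranked by the SD of the log ratio with a pseudocount of 0.5. Positions of annotated genes are from GENCODE on GRCm38.

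In each class the text names the 6 loci with the highest mean CPM, the 3 with the smallest p in each direction and the 3 with the most isoforms. Other loci named were chosen after their values were seen.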

Additional observations from a re-analysis of the deposited data

How the results depend on the processing

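The count of called new loci, 0, became 3 with DESeq2 and 0 to 3 when each library was left out in turn, with 3 without C2. The 26 loci higher in TEPP-46 at an unadjusted p under 0.05 became 8 with DESeq2 and 11 to 88 with a library left out (88 without C1, 11 without T1, 15 without T2). The 26 lower became 11 at a minimum of 100 counts and 10 to 50 with a library left out (50 without C2, 10 without C4). RLE scaling and the fit without a filter left these counts within 1.5 times. The share of counts on new loci differed by 0.0258 to 0.263 percentage points with a library left out, that on New_gene by 0.11 to 0.221, and that on Novel_lncRNA_gene by -0.157 to 0.0418, turning without C1 (0.0418) and without T3 (0.000157). The log2 ratio of class medians, 0.13, was -0.18 at a minimum of 100 counts, 0.0 with no count minimum, and 0.1 to 0.17 with a library left out. With means over loci it was -2.19, which rests on 1 locus, ONT.8879. The share with 1 isoform was 89.1% for New_gene and 48.0% for Novel_lncRNA_gene at a minimum of 100 counts. Called isoforms went from 0 to 2 with DESeq2, 5 without a filter and 0 to 6 with a library left out (6 without C2). Isoforms higher at an unadjusted p under 0.05 went from 40 to 10 with DESeq2 and 18 to 98 with a library left out (22 without T2), and lower ones from 35 to 70 without a filter and 21 to 81. The log2 fold change of ONT.3069 was 0.02 without C2. Over the 12 loci named for their p, 104 of 108 alternatives kept direction and side of the threshold, 3 passed it and 1 turned. For the alternative fits a share over all genes is given only for genes called by DESeq2 (0.553%), and none over all isoforms. Nothing is read from their counts about the new loci. The causes of these shifts were not tested. An alternative on locus length was not run, as lengths of new loci were not used here. No paired analysis was possible because the column numbers cannot be tied to the numbered samples. Counts under 100, which 47.5% of the loci have, limit what could be detected.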
